A study of Drosophila melanogaster with 8 samples.

Results

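The Torso terminal pathway and the repressor Capicua were followed through the first hours of Drosophila melanogaster embryogenesis, as mRNA levels in polyadenylated RNA. Members were picked by their gene symbol: trk, tor, csw, drk, Sos, Ras85D, phl, Dsor1, rl and cic, 10 of the 15598 genes listed in each table. The study compared wild-type embryos (strain given as WIII8 in the labels and w1118 in the protocol) at 0-0.5 h, 1-2 h, 2-3 h, 3-4 h and 4-5 h with embryos of the maternal NSUN2 knockout, collected at 0-0.5 h, 2-3 h and 4-5 h. The knockout embryos had NSUN2-/- mothers and w1118 fathers, whereas the wild-type embryos had w1118 parents on both sides. NSUN2 encodes an RNA cytosine methyltransferase. It lies on the X chromosome, so sons of the mutant mothers carried no intact copy and daughters carried the paternal copy, and the embryos were therefore maternal mutants of mixed zygotic genotype. The mutant alleles were frameshifts made with CRISPR/Cas9, and the mutant line behind these libraries is not given in the sources used here. Each collection pooled many whole embryos, and 1 table was used per condition, so the differences below could not be checked against replicates and carry no p-values.

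The terminal pathway patterns the ends of the fly embryo. The mother loads the egg with mRNA for the receptor tyrosine kinase Torso and for the cascade below it, and the ligand Trunk is made active at the poles only. Active Torso signals through adaptors to Ras and the kinase chain Raf, MEK and ERK, which relieves repression by Capicua, so that the gap genes tailless and huckebein are transcribed at the poles. Torso serves the embryo briefly, whereas the Ras to ERK chain is used again by the receptors that act later in the embryo.

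Values are FPKM, the fragments of a gene scaled to transcript length and sequencing yield, with the interval that Cufflinks attached to each estimate, which covers uncertainty within a table and not the spread between collections. Differences were taken between log2(FPKM + 1) values, where the added 1 shrinks those of genes with low FPKM, and the range beside a difference was built from the interval bounds. A gene was called higher or lower when the difference was at least 1 and the intervals did not overlap. All 10 members were among the 8728 genes with FPKM of at least 1 in at least 1 table, over which background shares were counted, and all 80 member estimates had the status OK. The median half-width of the interval ran from 23.0% to 29.1% at FPKM 1 to 2, from 7.40% to 8.96% at 10 to 20 and from 4.30% to 4.79% at 100 to 200. Nsun2 itself was lower in the knockout at every matched window, with FPKM of 0.128, 0.213 and 1.18 against 2.61, 2.71 and 6.59. The summed FPKM of the maternal mRNAs bcd, nos and osk went from 384 to 7.07 across the wild-type windows and from 447 to 62.8 across the knockout windows. Of these, bcd rose before it fell in the knockout, with FPKM of 40.2, 57.6 and 27.7. Whether a member's course differs from that of this maternal pool was not tested. Of 12 follicle cell and eggshell markers, which mark tissue of the mother, between 4 and 10 were listed at 0 per table and their summed FPKM stayed between 0.989 and 11.8, with Cp15 at 11.7 in the knockout at 2-3 h supplying most of the highest sum. Scaling the libraries by the median of ratios moved every gene by 0.44 in the wild type at 2-3 h against 0-0.5 h, and by 0.01 at 4-5 h. Between the genotypes the shift was -0.47 at 2-3 h, against 0.004 at 4-5 h. In these comparisons the 2-3 h values below depend more on the scaling than those of 4-5 h. Within the knockout that does not hold, since the shift against 0-0.5 h was 0.14 at 2-3 h and 0.19 at 4-5 h.

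The members took different courses in wild-type embryos. The front end, tor, trk and csw, fell and stayed low, and rl fell by 3-4 h. As deposited, Ras85D, drk and cic stayed within 2-fold of their first value at every window, phl dipped and returned, and Dsor1 fell and then rose above its first value together with Sos. In counts of members, none was called higher at 1-2 h against a background of 3.08% of all tested genes, and 1 of 10 was called lower (Dsor1, background 6.27%). At 2-3 h none was higher (background 8.86%) and 5 of 10 were lower, namely tor, trk, csw, phl and Dsor1 (background 26.3%). At 3-4 h Sos and Dsor1 were higher, 2 of 10 against 31.5%, and tor, trk, csw and rl were lower, 4 of 10 against 22.2%. At 4-5 h none was higher (background 25.4%) and the 4 that had been lower at 3-4 h still were (background 22.9%). The median difference of the members from 0-0.5 h was -0.24, -0.87, -0.22 and -0.27 at the 4 later windows, against -0.11, -0.18, 0.16 and 0.08 for all tested genes. The count at 2-3 h rested on the scaling, with 2 members lower under median-of-ratios scaling (trk and Dsor1) and 1 under quantile normalization (Dsor1). Ras85D at 2-3 h was called higher under median-of-ratios scaling (1.16, against 0.73 as deposited). The 4 lower members at 3-4 h and 4-5 h were lower by more than 2-fold under all 3 scalings.

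**Figure D1:**
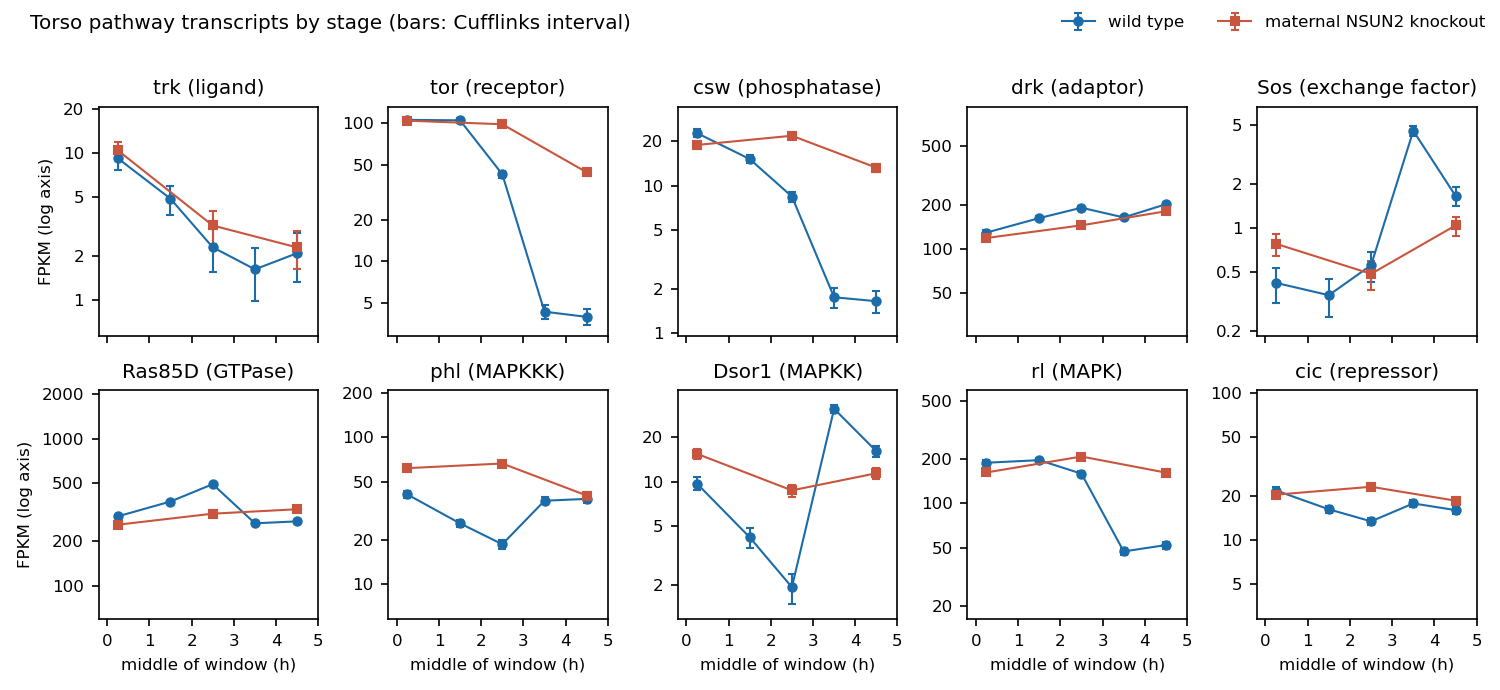
FPKM on a log axis against the middle of the collection window in hours for each of the 10 members, with wild type as blue circles, maternal NSUN2 knockout as red squares and bars for the Cufflinks interval. In the wild type tor, csw and rl drop between 2-3 h and 3-4 h while Dsor1 and Sos climb, and in the knockout tor, csw and rl remain well above the wild type at 4-5 h.

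Ordered by abundance at 0-0.5 h in the wild type, the members ran Ras85D, rl, drk, tor, phl, csw, cic, Dsor1, trk and Sos, from FPKM 296 down to 0.425. The intervals of csw and cic overlapped, as did those of Dsor1 and trk, so neither pair could be ordered. FPKM is scaled to transcript length, so values of different genes can be set side by side, but the order is that of the estimates. The intervals may not cover how fragments were divided between overlapping gene models, as described for tor below. At 4-5 h the wild-type order was Ras85D, drk, rl, phl, Dsor1, cic, tor, trk, Sos and csw, with overlapping intervals between Dsor1 and cic and along trk, Sos and csw. Thus tor went from the 4th to the 7th place, csw from above Dsor1 to below it, and the intervals separated both orders. In the knockout at 4-5 h tor was still the 4th, with an interval that overlapped that of phl, and csw was the 7th.

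Trunk, the precursor of the Torso ligand, was encoded by the least abundant front-end mRNA at 0-0.5 h. The gene trk lies on 2L, 10271443 to 10272324 in BDGP5. Its FPKM in the wild type was 9.24, 4.90, 2.29, 1.62 and 2.09 from 0-0.5 h to 4-5 h, and in the knockout it was 10.5, 3.22 and 2.29 at the 3 matched windows. It was highest at 0-0.5 h in both genotypes, and the genotypes overlapped at every matched window. From 0-0.5 h to 4-5 h it fell by 1.73 in the wild type (-2.34 to -1.18) and by 1.80 in the knockout (-2.30 to -1.34). The knockout minus wild-type difference at 4-5 h was 0.09 (-0.55 to 0.76), a range wide enough to hold a difference in either direction. Mulk, on the opposite strand, overlaps the end of trk by a few bases, and the mapping was strand-specific.

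Torso, the receptor, was the most abundant of the front-end mRNAs and showed the widest range of any member in the wild type, 26.4-fold from highest to lowest. The gene tor lies on 2R, 3590680 to 3597042. Wild-type FPKM was 105 (100.1 to 110.1), 104, 42.6, 4.34 and 3.98 (3.46 to 4.5) from the first window to the last. In the knockout it was 104, 97.7 and 44.0 (41.7 to 46.2) at the matched windows. The genotypes overlapped at 0-0.5 h and lay apart at 2-3 h and 4-5 h, where the knockout was higher by 1.18 (1.04 to 1.32) and by 3.18 (2.96 to 3.41), an FPKM ratio of 2.30 and 11.1. The difference at 2-3 h was 0.72 under median-of-ratios scaling and 0.69 under quantile normalization, below the fold required for a call, while that at 4-5 h was 3.17 and 3.54. The knockout at 4-5 h was closest to the wild type at 2-3 h among the 5 wild-type windows. In the knockout the drop from 0-0.5 h to 4-5 h was 1.22 in size (-1.36 to -1.08 as the range of the difference), and under quantile normalization it was 0.95, short of a call.

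The reads of tor may be shared with another gene model. CG34216 is annotated inside the span of tor on the same strand, and its FPKM of 19.4, 23.1, 11.0, 1.99 and 0.972 in the wild type and 18.0, 20.5 and 11.1 in the knockout followed the same course. How the fragments of this stretch were divided between the 2 models cannot be told apart here, and the level of tor is uncertain to that extent. CG30493, which overlaps the end of tor on the opposite strand, took the other course and went from 3.25 at 0-0.5 h to 19.0 at 4-5 h in the wild type.

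Torso was compared with the other receptor tyrosine kinases of the fly that use the same chain. Of the summed FPKM of 8 receptors, tor held 96.1%, 92.8%, 64.8%, 6.0% and 6.24% in the wild type from the first window to the last. In the knockout it held 94.8%, 92.6% and 60.6% at 0-0.5 h, 2-3 h and 4-5 h. Torso mRNA was therefore almost the only receptor mRNA of this set in fresh eggs of either genotype, and still the main one in the knockout at 4-5 h. At 3-4 h in the wild type Egfr, the epidermal growth factor receptor, held 34.8%, the mesodermal fibroblast growth factor receptor htl 33.0% and the tracheal one btl 15.6%. In the knockout at 4-5 h these 3 held 10.5%, 15.4% and 8.36%. Of the 7 other receptors, Egfr, htl, btl, Pvr and Alk were called higher in the wild type at 3-4 h than at 0-0.5 h, 5 of 7 against 31.5% of all tested genes, InR was not called and sev, the eye receptor Sevenless, was listed at 0. Between the genotypes at 4-5 h 1 of the 7 was called, btl, lower in the knockout by 1.10 on the log2 scale (background 6.77%). The intervals of 5 of 7 lay below the wild type, but no share of all tested genes was counted for this measure. The count of lower receptors was 3 under equal totals (btl, Egfr and Pvr) and under quantile normalization (btl, Egfr and htl).

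**Figure D2:**
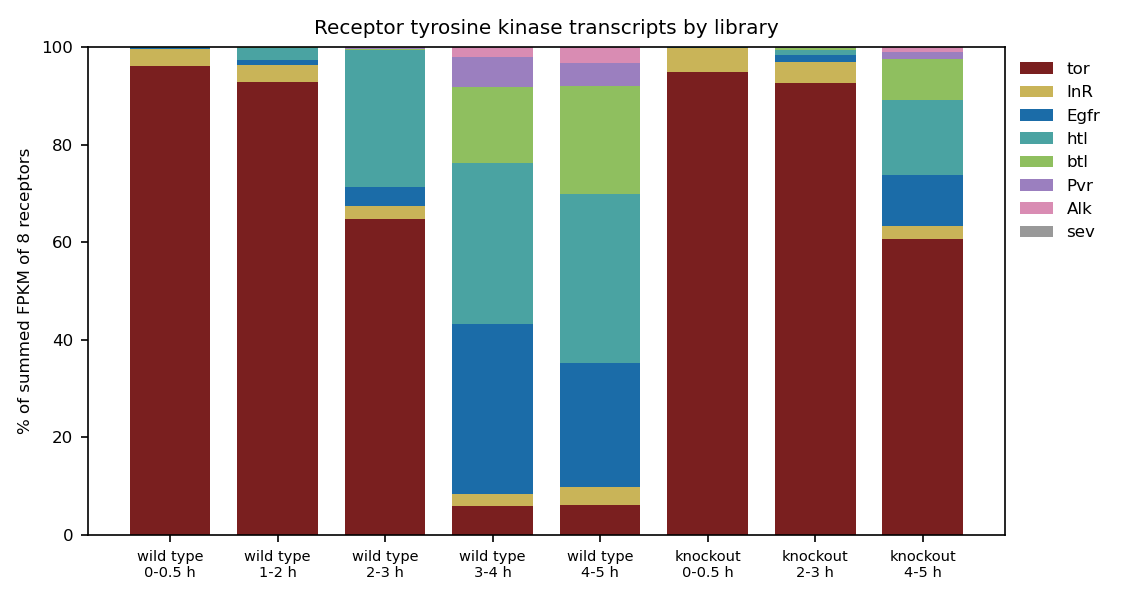
Share, in percent, that each of 8 receptor tyrosine kinases held of their summed FPKM, stacked for the 5 wild-type and 3 knockout libraries. tor fills almost the whole bar at 0-0.5 h, drops to 6.0% in the wild type at 3-4 h as Egfr, htl and btl take its place, and still holds 60.6% in the knockout at 4-5 h.

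Corkscrew, the SHP2-type phosphatase that passes the Torso signal on, was encoded by an mRNA that was lost in the wild type and largely kept in the knockout. The gene csw lies on X, 1988267 to 2009734. Wild-type FPKM was 22.8, 15.2, 8.45, 1.75 and 1.64 from the first window to the last, against 18.9, 21.9 and 13.3 in the knockout at 0-0.5 h, 2-3 h and 4-5 h. The lowest knockout value exceeded the wild-type values of the last 3 windows. In the wild type csw fell by 3.17 by 4-5 h (-3.41 to -2.94), a 13.9-fold loss of FPKM. In the knockout the difference over the same time was -0.48 (-0.64 to -0.32), and it was 0.11 under quantile normalization. The knockout was higher than the wild type by 1.28 at 2-3 h (1.10 to 1.45) and by 2.43 at 4-5 h (2.2 to 2.67), and the first of these was 0.85 under median-of-ratios scaling.

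The adaptor Drk, which links receptors to the Ras exchange factor, came from an abundant mRNA with no called change. The gene drk lies on 2R, 9382727 to 9390342. Its FPKM was 129, 162, 191, 164 and 202 in the wild type and 119, 145 and 181 in the knockout. The highest and lowest wild-type values differed by 1.56-fold, and the knockout was within 1.32-fold of the wild type at each matched window. mars overlaps drk on the opposite strand, and its FPKM between 2.67 and 35.3 stayed well below that of drk.

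Son of sevenless, the exchange factor that loads Ras with GTP, was the only member that was nearly absent at first and appeared later. The gene Sos lies on 2L, 13813816 to 13819826. Its FPKM was 0.425, 0.350, 0.560, 4.59 and 1.66 in the wild type and 0.783, 0.489 and 1.04 in the knockout. The wild-type value at 3-4 h (4.22 to 4.96) stood above all others, and no knockout table covers that window. Against 0-0.5 h it rose by 1.97 at 3-4 h (1.76 to 2.18), a 10.8-fold increase of FPKM, although the difference was 0.77 under quantile normalization and 0.82 with a pseudocount of 5. At 4-5 h the knockout minus wild-type difference was -0.38 (-0.62 to -0.14).

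Ras85D, the Ras GTPase itself, had the highest FPKM of the 10 members in every table. It lies on 3R, 5336283 to 5338809. FPKM was 296, 373, 490, 266 and 274 in the wild type and 260, 309 and 331 in the knockout. The wild type peaked at 2-3 h, and the knockout was highest at 4-5 h. The knockout minus wild-type difference was -0.66 at 2-3 h (-0.71 to -0.62), where it reached -1.13 under median-of-ratios scaling, and 0.27 at 4-5 h (0.22 to 0.32). The wild-type difference from 0-0.5 h was -0.16 at 3-4 h and -0.11 at 4-5 h, and both turned positive under quantile normalization (0.13 and 0.15).

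The 3 kinases below Ras followed 3 different courses. phl, the fly Raf, lies on X, 2189917 to 2237903, in a span that also holds several other gene models. Its FPKM was 40.9, 26.0, 18.8, 37.1 and 38.2 in the wild type and 61.7, 66.4 and 40.2 in the knockout. The wild type was lowest at 2-3 h, 1.08 below 0-0.5 h (-1.25 to -0.92), and was back within overlapping intervals of its first value at 3-4 h and 4-5 h. The dip was 0.67 in size under median-of-ratios scaling and 0.26 under quantile normalization, so its depth rests on the scaling. The knockout was higher by 0.58 at 0-0.5 h and by 1.77 at 2-3 h (1.61 to 1.93), and the genotypes overlapped at 4-5 h.

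Dsor1, the fly MEK, lies on X, 9141375 to 9144070. Its FPKM was 9.73, 4.20, 1.92, 31.3 and 16.1 in the wild type and 15.5, 8.74 and 11.4 in the knockout. In the wild type a low at 2-3 h (1.48 to 2.36) was followed by the highest value of the gene at 3-4 h (29.5 to 33.1), a 16.3-fold step. It fell by 1.88 at 2-3 h (-2.24 to -1.53) and stood 1.59 above its first value at 3-4 h (1.38 to 1.81), and both calls held under the 3 scalings. The 3 knockout values spanned 1.77-fold, and none reached the wild-type level of 3-4 h or 4-5 h except the first, which overlapped the latter. Between the genotypes the knockout was higher at 2-3 h by 1.74 (1.40 to 2.09) and differed by -0.46 at 4-5 h (-0.69 to -0.24).

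rl, the fly ERK, lies on 2RHet, 198176 to 251950, in the heterochromatic part of the assembly. Its FPKM was 189, 197, 159, 47.2 and 52.1 in the wild type and 162, 208 and 162 in the knockout. The wild type dropped most between 2-3 h and 3-4 h, after a smaller step from 1-2 h to 2-3 h with intervals apart, and all 3 knockout values lay above both late wild-type values. By 3-4 h rl had fallen by 1.98 in the wild type (-2.11 to -1.85), whereas the knockout at 4-5 h differed from its own first value by -0.00 (-0.11 to 0.10). That knockout difference was 0.18 under median-of-ratios scaling, -0.21 under equal totals and 0.16 under quantile normalization. The knockout was higher at 4-5 h by 1.62 (1.49 to 1.75), a 3.11-fold ratio, and this difference was between 1.5 and 1.63 under the other scalings and pseudocounts. At 2-3 h the genotype difference was 0.39 and turned to -0.08 under median-of-ratios scaling. Unlike tor and csw, rl remained one of the abundant mRNAs of the set after its drop, the 3rd of 10 at 4-5 h.

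Capicua, the HMG-box repressor that the cascade switches off, had the smallest wild-type range after drk among the members. The gene cic lies on 3R, 16078492 to 16128194. Its FPKM was 21.6, 16.1, 13.4, 17.7 and 15.9 in the wild type and 20.3, 22.9 and 18.5 in the knockout. The wild-type values spanned 1.62-fold and the knockout values 1.24-fold, and no difference was called. The knockout minus wild-type difference at 0-0.5 h was -0.09 (-0.22 to 0.04), that at 2-3 h 0.74 (0.60 to 0.88) and that at 4-5 h 0.20 (0.06 to 0.34), and the 2-3 h difference turned to -0.05 under quantile normalization. In bulk embryos, fewer cells carrying an mRNA and less of it per cell cannot be told apart, which holds for every gene here.

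Within the knockout, trk was lower than at the start in both later windows and tor in the last. At 2-3 h none was called higher than at 0-0.5 h (background 2.91%) and trk alone was lower, 1 of 10 against 14%. At 4-5 h none was higher (background 11.9%), and tor and trk were lower, 2 of 10 against 20.3%. The member medians were 0.14 and -0.27, and those of all tested genes 0.03 and -0.05. The shares of members were near those of all genes.

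Between the genotypes, every member called as deposited was higher in the knockout, and calls began at 2-3 h. At 0-0.5 h none was called higher (background 6.86%) or lower (background 1.34%), and the largest differences were those of Dsor1 (0.62) and phl (0.58). At 2-3 h tor, csw, phl and Dsor1 were higher in the knockout, 4 of 10 against 28.2%, and none was lower (background 8.80%). At 4-5 h tor, csw and rl were higher, 3 of 10 against 10.6%, and none was lower (background 6.77%). Median differences were -0.05, 0.56 and 0.14 for the members and 0.03, 0.23 and -0.18 for all tested genes. The set that differed changed between the windows, since phl and Dsor1 had come within a difference of 0.5 of the wild type by 4-5 h while rl had moved away from it. The 2-3 h count of higher members went to 2 under median-of-ratios scaling, where Ras85D was called lower in the knockout, and to 1 under quantile normalization. The 4-5 h count was 3 under each scaling.

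**Figure D3:**
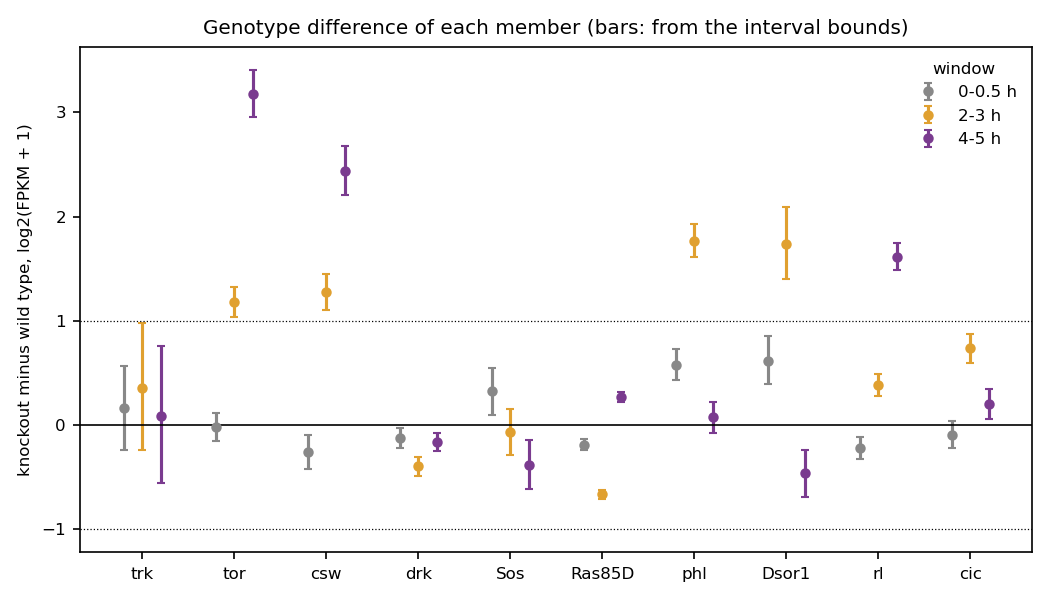
Knockout minus wild-type difference on the log2(FPKM + 1) scale for each member at 0-0.5 h (grey), 2-3 h (yellow) and 4-5 h (purple), with bars from the interval bounds and dotted lines at the 2-fold limits. tor, csw and rl stand above the upper limit at 4-5 h, phl and Dsor1 at 2-3 h only, and trk lies near 0 with wide bars at all 3 windows.

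The knockout values were also placed along the wild-type course. At 2-3 h, 8 of 10 members were closer to the wild type at 1-2 h than to that at 2-3 h, all but trk and Sos, against 71.6% of all tested genes. At 4-5 h, 4 of 10 were closer to the wild type at 3-4 h than to that at 4-5 h (tor, csw, drk and cic), against 46.1%. Across all 5 wild-type windows the knockout at 4-5 h was closest to 2-3 h for tor, trk, drk and rl and to 1-2 h for csw. It was closest to 0-0.5 h for Ras85D, phl and Dsor1, to 3-4 h for cic and to 4-5 h for Sos. These matches took no account of the intervals. At 4-5 h the knockout interval of phl overlapped the wild type at 0-0.5 h, 3-4 h and 4-5 h, and that of trk at 2-3 h, 3-4 h and 4-5 h. For tor and csw the margins were small, with distances of 3.08 against 3.18 and of 2.38 against 2.43. By the estimates alone the members had no common match, and the share at either window was near that of all genes.

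Genes that prepare the ligand or carry its eggshell cue were mixed. Of 7 genes for ligand maturation and eggshell cues, fs(1)N, clos, Fur2 and fs(1)ph (listed as fs(1)M3) were lower in the wild type at 2-3 h and 4-5 h than at 0-0.5 h. These were 4 of 7 at each window, against 26.3% and 22.9% of all tested genes, and Fur1 and Ptth were not called. fs(1)N, which encodes a vitelline membrane protein needed to localize terminal signalling, had FPKM of 21.9, 6.65, 0.242, 0.131 and 0.120 in the wild type and 27.0, 5.68 and 2.05 in the knockout. Fur2, a furin-type protease gene, had 26.6, 15.9, 7.90, 3.11 and 1.62 in the wild type and 23.5, 28.8 and 12.2 in the knockout. The 4 were higher in the knockout at 2-3 h, 4 of 7 against 28.2% of all tested genes, though Fur2 was at 0.91 under quantile normalization. At 4-5 h fs(1)N and Fur2 were higher, by 1.45 and 2.34, 2 of 7 against 10.6%. tsl, the torso-like gene that the mother expresses in follicle cells, was at 0.0685 at 0-0.5 h and 3.93 at 4-5 h in the wild type, a rise of 2.2 on the log2 scale.

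Scaffolds and modulators of the chain were mixed. Of 8 such genes, 2 were higher (cnk and Shc) in the wild type at 4-5 h, against 25.4% of all tested genes. The 1 lower gene was msk (background 22.9%), and 5 were not called. The call of cnk was at the limit (1.01, and 0.91 under equal totals). msk, the importin that takes activated ERK into the nucleus, went from 354 to 42.5 in the wild type and from 349 to 66.2 in the knockout. The scaffold gene cnk, like Dsor1, was lowest at 2-3 h and highest at 3-4 h in the wild type, with 5.83, 3.99, 3.30, 25 and 12.8. Its dip at 2-3 h was not called, unlike that of Dsor1. In the knockout cnk was at 12.9, 20.9 and 12.6, highest at 2-3 h, where Dsor1 was lowest. cnk was already higher in the knockout at 0-0.5 h, by 1.02, a call lost under median-of-ratios scaling (0.86). At 2-3 h ksr, cnk, dos and msk were higher in the knockout, 4 of 8 against 28.2% of all tested genes. That count was 3 under median-of-ratios scaling, where 2 others were lower, and 2 under quantile normalization (cnk and msk). At 4-5 h none of the 8 was called between the genotypes, and 1 was lower under quantile normalization (Shc).

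Of 6 negative regulators, 1 was higher and 1 lower in the wild type at 4-5 h, against 25.4% and 22.9% of all tested genes. sty, the Sprouty inhibitor, rose in the wild type by 3.02 at 4-5 h, and Nf1, a GTPase-activating protein of Ras, fell by 1.46. Mkp3, the ERK phosphatase, was higher at 3-4 h only, at FPKM 25.2 against 4.12 at 0-0.5 h. At 2-3 h Gap1, PTP-ER and Spred were higher in the knockout, 3 of 6 against 28.2% of all tested genes, and Gap1 lost the call under median-of-ratios scaling (0.83) and quantile normalization (0.53). At 4-5 h none was called. Of 3 Capicua partners and regulators, the corepressor gro was higher in the wild type at 3-4 h, at 33.3 against 15.2. This was 1 of 3, against 31.5% of all tested genes. The kinase gene mnb was higher in the knockout at 2-3 h, at 11.8 against 3.16, which was 1 of 3 against 28.2%. wap (listed as CG14614), which encodes a partner of that kinase, was not called as deposited, but was lower in the knockout at 2-3 h under median-of-ratios scaling (-1.12). The call of mnb was lost under quantile normalization (0.86).

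The genes on the output side rose from low first values. All 6 terminal targets and genes that Capicua represses, tll, hkb, byn, fkh, wntD and ind, were higher in the wild type at 2-3 h, 3-4 h and 4-5 h than at 0-0.5 h, against 8.86%, 31.5% and 25.4% of all tested genes. Under quantile normalization the count at 4-5 h was 4 of 6, with tll at 0.33 and byn at 0.90. tll had FPKM of 0.278, 2.92, 4.56, 8.13 and 2.24 in the wild type and 0.441, 2.99 and 1.38 in the knockout. hkb had 0.325, 3.08, 7.28, 14 and 7.61 in the wild type and 0.0937, 2.03 and 2.77 in the knockout. Both peaked at 3-4 h in the wild type, when tor had already gone to 4.34, and the knockout was lower than the wild type for all 6 at 2-3 h and 4-5 h with intervals apart. The fold needed for a call was passed by hkb, fkh, wntD and ind at 2-3 h, 4 of 6 against 8.80% of all tested genes. At 4-5 h it was passed by hkb and fkh, 2 of 6 against 6.77%. All 6 differences at both windows stayed below 0 under each of the 3 scalings. Of 8 early zygotic markers, 6 were likewise lower in the knockout with intervals apart at each of both windows. The fold for a call was passed by 2 of 8 at 2-3 h (background 8.80%) and by 1 of 8 at 4-5 h (background 6.77%). At 2-3 h nullo went the other way and was called higher in the knockout, at 42.0 against 11.8. No share of all tested genes with intervals apart was counted. The median differences of the 8 markers were -0.69 and -0.61, against -1.57 and -0.73 for the 6 targets. Whether the targets differed from these markers was not tested. wntD was already lower in the knockout at 0-0.5 h, at 0.573 against 2.75.

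The 3 nuclear effectors of the chain, pnt, aop and edl, were higher in the wild type at 3-4 h and 4-5 h. This was 3 of 3 at each window, against 31.5% and 25.4% of all tested genes. pnt, the activating ETS factor, was at 1.78, 0.596, 0.678, 32.8 and 31.4 in the wild type and 2.42, 1.73 and 17.2 in the knockout. edl, which encodes an antagonist of the ETS repressor, was at 1.83 at 0-0.5 h and 164 at 4-5 h in the wild type, and it was lower in the knockout at all 3 matched windows, by 1.07 on the log2 scale at 4-5 h. In the same knockout tables tor, csw and rl were above the wild type, so at 4-5 h called members and called output genes differed in opposite directions. The maternal mRNAs bcd, nos and osk were also called higher in the knockout at 4-5 h, 3 of 3 against 10.6% of all tested genes, with a median difference of 2.65. Of 129 called differences of the pathway lists and other receptors, none changed direction under a scaling, an alternative for these lists chosen after seeing the data. Median-of-ratios scaling lost 8 of these calls and gained 10 others, equal totals lost 2 and gained 10, and quantile normalization lost 21 and gained 16.

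**Figure D4:**
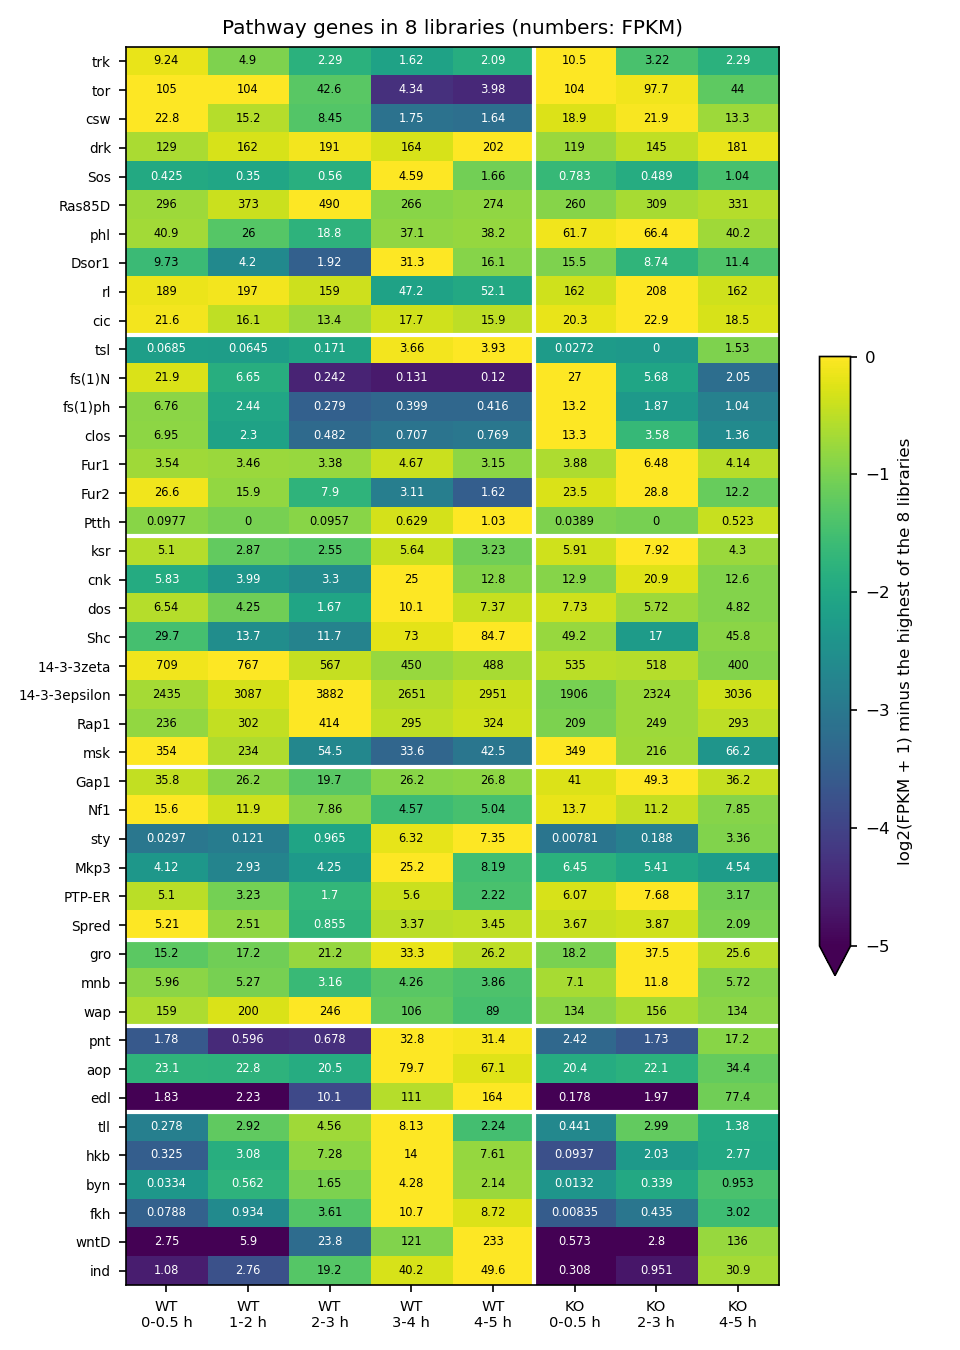
Heat map of the members and 6 lists of pathway genes, in blocks from the members to the terminal targets, over 5 wild-type (WT) and 3 knockout (KO) libraries, with FPKM written in each cell. Colour gives log2(FPKM + 1) minus the highest of the 8 libraries; in the wild type tor, csw, fs(1)N and Fur2 are brightest at 0-0.5 h, and pnt, edl and the terminal targets are brightest in the wild type at 3-4 h or 4-5 h.

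For each member the 3 most alike genes were found by the distance between centred log2(FPKM + 1) profiles over the 8 libraries, among 6283 other genes that reached FPKM 10. The closest to tor were CG5568 (distance 0.48), CG34252 (0.51) and CG10863 (0.54), and the closest to trk were CG7504, CG8498 and lok. The nearest genes were EDTP, CG14100 and CG3508 for csw and Rab35, tej and CG3008 for rl. They were CG10053, Mlc-c and CG8207 for drk, CG11583, Parp and CG10139 for Ras85D, and mask, CG8675 and CG4820 for cic. For phl they were FBgn0022288, CG3071 and CG11906, for Dsor1 mit(1)15, PR2 and CG3894, and for Sos CG12090, toc and Ptp4E. mit(1)15 shared the low and high of Dsor1, with FPKM of 4.00, 1.52, 0.698, 16.3 and 8.65 in the wild type and 8.49, 3.87 and 6.72 in the knockout. Rab35, a vesicle transport GTPase gene, had its main drop at the same step as rl, with 279, 308, 241, 64.4 and 74.1 in the wild type and 238, 285 and 219 in the knockout. Among the members themselves, the closest pairs were Ras85D with drk (0.80) and cic with phl (1.00), whereas csw stood 1.38 from rl and 1.73 from tor. Every gene compared here comes from the same 8 libraries, and these distances are descriptions.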

How the data were processed

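Polyadenylated RNA of embryos under 8 conditions, with 1 table per condition, was captured with oligo dT beads and sequenced from directional libraries. The authors trimmed reads with cutadapt (version 1.13 in the submitters' processing notes), mapped pairs strand-specifically with TopHat to BDGP5, passed unique alignments to Cufflinks and deposited FPKM per gene with interval bounds. The methods state that replicates were averaged, and whether each table is 1 library or several is not given in the sources used here. The tables give no fragment counts, so depth is unknown. Spike-in RNA was added but is not listed in the tables, and FPKM of polyadenylated RNA depends on the rest of the library and on tails.

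Coordinates are those of the tables, with starts moved by 1 base so that they count from 1. From the FPKM, log2(FPKM + 1) differences were computed with Python 3.11.15, numpy 2.4.6 and pandas 2.3.3, and figures were drawn with matplotlib 3.10.9. The steps were tested on simulated data. All members were named, together with counts over 7 gene lists and the 3 most alike genes of each member. The members and lists were chosen with earlier results of these data known. Alternatives were pseudocounts of 0.1 and 5, no minimum FPKM, a 1.5-fold limit, calls ignoring the intervals, and 3 scalings (median of ratios, equal totals, quantile). No DNA or protein sequence was used here.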

Additional observations from a re-analysis of the deposited data

Results flagged for a closer look

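Some members differed from 0-0.5 h in opposite directions in the 2 genotypes, with intervals apart in both, and these differences between the genotypes were not tested. At 2-3 h the knockout minus wild-type change was 1.53 for csw (-1.33 in the wild type and 0.20 in the knockout), 0.60 for rl (-0.25 and 0.36) and 0.83 for cic (-0.66 and 0.17). These are 3 of 10 members, where 11.9% of all tested genes met the same condition. The directions of csw were opposite under all 3 other scalings, whereas those of rl were not under median-of-ratios scaling and those of cic were not under quantile normalization. At 4-5 h it was 0.46 for Ras85D (-0.11 and 0.35) and -1.08 for Dsor1 (0.67 and -0.41), 2 of 10 members against 9.40% of all tested genes. Neither kept opposite directions under quantile normalization.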

How the results depend on the processing

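No paired analysis was possible because each condition had 1 table and no replicate numbers, and for the same reason no replicate could be left out. No called member difference changed direction under any alternative. Of 126 member counts under the alternatives, 24 changed by more than 1.5 times or between 0 and a call, none of them under equal totals or when the intervals were ignored, and those 24 are given here. Smaller changes were 5 members higher in the knockout than in the wild type at 2-3 h under equal totals, and, with a 1.5-fold limit, 5 there, 6 lower in the wild type at 2-3 h and 3 lower in the knockout by 4-5 h. With a pseudocount of 5, the members called lower were 0 in the wild type at 1-2 h, 3 at 2-3 h and 0 in the knockout at 2-3 h, those called higher were 1 in the wild type at 3-4 h, and 2 were higher in the knockout than in the wild type at 2-3 h. With a pseudocount of 0.1, 1 member (Sos) was higher in the wild type at 4-5 h. Under median-of-ratios scaling, the wild type had 0 lower at 1-2 h and 1 higher and 2 lower at 2-3 h, and the knockout had 2 higher and 1 lower than the wild type at 2-3 h. Quantile normalization gave 0 lower in the wild type at 1-2 h, 1 lower at 2-3 h and 1 higher at 3-4 h, 0 lower within the knockout by 2-3 h and 1 by 4-5 h, 1 higher in the knockout than in the wild type at 2-3 h, and 1 member of the knockout at 4-5 h closer to the younger window. A 1.5-fold limit also gave 3 lower in the wild type at 1-2 h, 1 higher at 2-3 h and 3 higher at 4-5 h, 2 lower within the knockout by 2-3 h and 1 higher by 4-5 h, and, between the genotypes, 1 higher at 0-0.5 h and 1 lower at 2-3 h. Without the minimum FPKM, background shares are lower since all 15598 genes are counted. Precision limits trk and Sos most, whose FPKM stayed near or below 10 throughout.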
